A study of Mus musculus with 2 samples.

Results

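Major histocompatibility complex (MHC) class I molecules and the machinery that loads them with peptide were followed through 10 genes in hippocampal RNA. These were the classical heavy chain genes *H2-K1* and *H2-D1*, the nonclassical heavy chain genes *H2-T22*, *H2-T23*, *H2-T10* and *H2-Q4*, the light chain gene *B2m*, the peptide transporter genes *Tap1* and *Tap2*, and the tapasin gene *Tapbp*. They make up 10 of 55573 gene rows, and each symbol matched 1 row. The list was chosen by results of these same libraries, since the difference in their counts and FPKM had been seen when it was drawn up, so all values of its genes are a description and none is a test.

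The study compared *Cdh5-CreERT2;CDK5f/f* mice, in which tamoxifen activates a Cre recombinase driven by the endothelial *Cdh5* promoter so that *Cdk5* is lost from endothelial cells, with *CDK5f/f* mice, which carry the floxed allele without the Cre driver. Each genotype had 1 library of C57BL/6 hippocampus, called the mutant library and the control library here. The mutant is marked as Tamoxifen and the control as untreated, so tamoxifen and genotype cannot be told apart. The labels give neither age, sex, the time after tamoxifen nor how many mice a sample holds, and since each genotype has 1 library, no difference could be set against a spread between replicates and no p-value is given.

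A class I molecule is a heavy chain paired with β2-microglobulin that holds a short peptide at the cell surface. Peptides made by the proteasome are pumped into the endoplasmic reticulum by the TAP1-TAP2 transporter, and tapasin holds the empty heavy chain beside the transporter until a peptide is bound. Classical class I molecules show these peptides to CD8 T cells, the nonclassical ones have more specialised ligands and receptors, and class I molecules of neurons also take part in synaptic remodelling in the hippocampus.

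Total counts were 18900847 in the mutant library and 19451827 in the control library. The libraries differed in more than genotype and treatment. *Xist*, the RNA of the inactive X chromosome, had 34 counts in the mutant library and 15070 in the control library, and the Y-linked *Ddx3y* had 771 and 0, so the sex of the mice differed as well and cannot be told apart from genotype. All 13 choroid plexus markers were higher in the mutant library past 1.5-fold, with 116912 summed counts against 8368 in the control library. *Cdk5* itself, which neurons also express, had 1257 counts in the mutant library and 1261 in the control library, a ratio per library total of 1.03 (exact 95% interval 0.948 to 1.11). All 8 markers of hippocampal neurons were measured in both libraries, with 127487 summed counts in the mutant and 138915 in the control. The series design names the CA1 region, and the dentate gyrus marker *C1ql2* was present too, at 27.49 FPKM in the mutant library and 28.58 FPKM in the control library. In bulk tissue, fewer cells of a type and less RNA per cell cannot be told apart.

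The heavy chain genes share promoter elements, and the stretches that hold them are shown because the genes with nearly the same elements had different ratios in these libraries. For each gene only the first listed RefSeq start was used, so any other start was not looked at. RefSeq promoters (250 bases before to 50 after the start, GRCm38.p6) matched 8 of the 10 genes. They were searched on both strands for GGGATTCCC, the NF-kB site of enhancer A, for GTTTCACTT, a core of the interferon-stimulated response element, for TGATGAC, the X2 box bound by CREB family factors, and for CCAAT, the Y box bound by NF-Y. Capitals mark each match, a CCAAT on the other strand reading ATTGG. The stretches lie at chr17:34000319-34000463 on the minus strand for *H2-K1*, chr17:35262918-35263061 on the plus strand for *H2-D1*, chr17:35379457-35379582 on the plus strand for *H2-Q4*, chr17:36042785-36042949 on the minus strand for *H2-T22* and chr17:36032733-36032759 on the minus strand for *H2-T23*.
H2-K1: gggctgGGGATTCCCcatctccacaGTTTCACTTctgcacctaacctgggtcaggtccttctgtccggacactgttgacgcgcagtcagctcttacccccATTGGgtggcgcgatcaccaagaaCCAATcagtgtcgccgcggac
H2-D1: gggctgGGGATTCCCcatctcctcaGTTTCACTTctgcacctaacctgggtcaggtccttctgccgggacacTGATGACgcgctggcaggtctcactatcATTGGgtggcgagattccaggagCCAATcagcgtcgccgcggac
H2-Q4: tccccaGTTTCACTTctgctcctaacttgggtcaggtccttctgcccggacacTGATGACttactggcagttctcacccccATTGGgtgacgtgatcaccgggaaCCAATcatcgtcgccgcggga
H2-T22: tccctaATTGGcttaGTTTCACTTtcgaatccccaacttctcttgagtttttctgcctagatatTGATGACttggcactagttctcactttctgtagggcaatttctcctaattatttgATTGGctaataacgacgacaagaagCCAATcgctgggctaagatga
H2-T23: taaaagCCAATcagcgacgcagaggtc

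The NF-kB letters stood in the promoters of *H2-K1* and *H2-D1* and in 0.353% of all 32851 promoters. The interferon response letters stood in *H2-K1*, *H2-D1*, *H2-Q4* and *H2-T22*, against 0.399% of all promoters. The X2 letters stood in *H2-D1*, *H2-Q4* and *H2-T22* and in 3.23% of all promoters, and the Y box letters stood in all 8 matched promoters and in 37.4% of all promoters. The *H2-K1* and *H2-D1* promoters were 88.3% identical over 239 aligned bases, and that of *H2-Q4* was 83.5% identical to *H2-K1* and 83.1% to *H2-D1*. The pairs with *H2-T22* or *H2-T23* ranged between 55.1% and 63.7%. These matches describe letters in a window and do not show that a factor was bound.

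Within the list, differences past 1.5-fold between the libraries lay in 3 heavy chain genes. *H2-K1*, *H2-T22* and *H2-T23* were higher in the mutant library past 1.5-fold on the log2(FPKM + 1) scale, none of the 10 genes was lower past it, and the other 7 lay within it. Over all 14778 measured genes, those that reach 1 FPKM in either library, 3.65% were higher and 3.16% were lower by the same measure. All 10 genes passed that minimum, but *H2-T22*, *H2-T23* and *Tap1* passed through the mutant library alone and *H2-T10* through the control library alone. The counting interval of the ratio lay above 1 for *H2-K1*, *H2-T22*, *H2-T23* and *Tap1*, below 1 for *B2m* and included 1 for the other 5, beside 19.7% of all measured genes with an interval above 1 and 17.9% with one below it. The list was chosen on this same contrast, so nothing is read from these counts against the background.

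**Figure D1:**
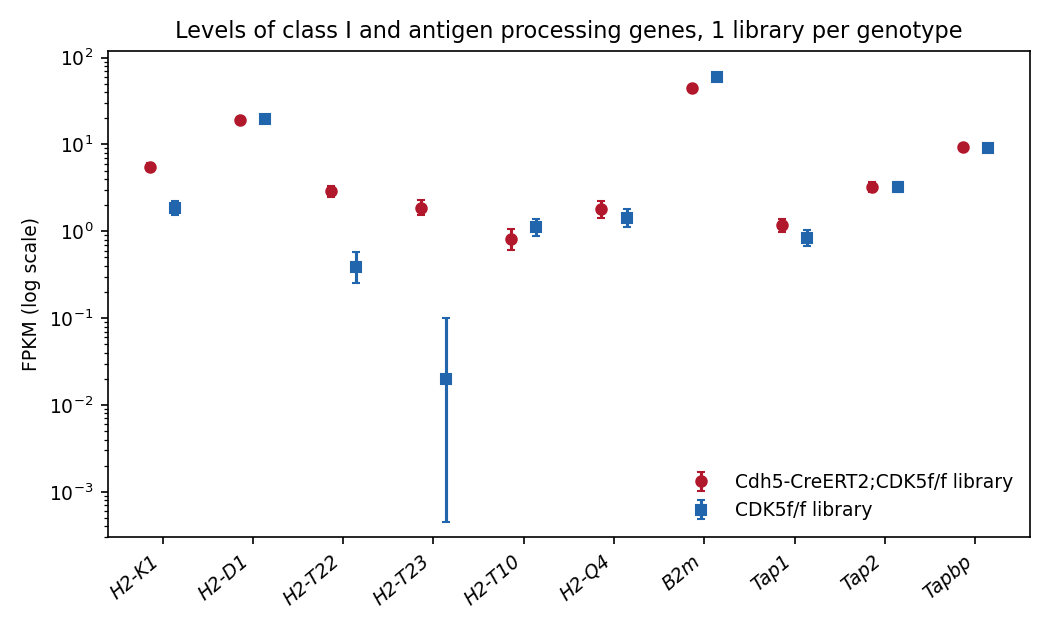
FPKM on a log axis of each of the 10 genes in the mutant library (red circles) and the control library (blue squares), with exact 95% Poisson intervals that cover counting error only. The libraries stand well apart at *H2-K1*, *H2-T22* and *H2-T23*, at 5.53 against 1.87, 2.90 against 0.39 and 1.87 against 0.02 FPKM.

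The classical heavy chain genes moved apart. *H2-K1* (chr17:33996017-34000347, minus strand, GRCm38) had 307 counts and 5.53 FPKM in the mutant library, against 107 counts and 1.87 FPKM in the control library. Its ratio per library total was 2.95 (exact 95% interval 2.36 to 3.71), with a log2 ratio of FPKM + 1 of 1.19. *H2-D1* (chr17:35262730-35267499, plus strand), the partner of *H2-K1* in presenting peptide to CD8 T cells, had 926 counts and 19.0 FPKM in the mutant library and 986 counts and 19.65 FPKM in the control library. That ratio was 0.967 (0.883 to 1.06), so a difference in *H2-D1* was not detectable at this depth. The quotient of *H2-K1* FPKM over *H2-D1* FPKM was 0.291 in the mutant library and 0.0952 in the control library. The promoters of these genes carry the same NF-kB and interferon response letters, as printed above, but only that of *H2-D1* carries the X2 letters.

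*H2-T22*, *H2-T23* and *H2-T10* lie near one another in the T region of the MHC. *H2-T22* (chr17:36037128-36042747, minus strand), a ligand of some γδ T cell receptors, had 187 counts and 2.90 FPKM in the mutant library, against 26 counts and 0.39 FPKM in the control library. Its ratio was 7.40 (4.90 to 11.6). *H2-T23* (chr17:36029773-36032855, minus strand) encodes Qa-1, which presents a leader peptide of other class I heavy chains to the CD94/NKG2 receptors of natural killer cells. It had 102 counts and 1.87 FPKM in the mutant library and 1 count and 0.02 FPKM in the control library, a ratio of 105 with a counting interval from 18.4 to 4186. The control level of *H2-T23* was thus near the limit of detection, and its fold is poorly determined.

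*H2-T10* (chr17:36115876-36121465, minus strand), whose product binds γδ T cell receptors like that of *H2-T22*, did not share the difference. It had 53 counts and 0.82 FPKM in the mutant library and 74 counts and 1.11 FPKM in the control library, and its ratio of 0.737 (0.508 to 1.06) had an interval that included 1. The FPKM quotient of *H2-T22* over *H2-T10* was 3.54 in the mutant library and 0.351 in the control library, so the order of the pair was opposite in the libraries. *H2-Q4* (chr17:35379617-35385290, plus strand), a gene of the Q region, had 88 counts and 1.79 FPKM in the mutant library and 72 counts and 1.43 FPKM in the control library. Its ratio of 1.26 (0.911 to 1.74) also included 1.

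*B2m* (chr2:122147686-122153083, plus strand), the light chain that pairs with class I heavy chains, had the highest FPKM of the list in both libraries. It had 727 counts and 44.73 FPKM in the mutant library, against 998 counts and 59.66 FPKM in the control library. The ratio was 0.750 (0.680 to 0.826) and the log2 ratio of FPKM + 1 was -0.41, which is below 1 beyond counting error and within 1.5-fold. *B2m* FPKM divided by the summed FPKM of the 6 heavy chain genes was 1.40 in the mutant library and 2.44 in the control library. The light chain transcript was therefore lower, relative to the heavy chain transcripts, in the mutant library.

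Of the peptide loading genes of the list, *Tap1* had a ratio above 1 beyond counting error, and those of *Tap2* and *Tapbp* had intervals that included 1. *Tap1* (chr17:34187553-34197225, plus strand), a subunit of the transporter, had 121 counts and 1.17 FPKM in the mutant library and 90 counts and 0.84 FPKM in the control library, a ratio of 1.38 (1.04 to 1.84). *Tap2* (chr17:34203527-34216321, plus strand), the other subunit, had 231 counts and 3.23 FPKM in the mutant library and 237 counts and 3.22 FPKM in the control library, a ratio of 1.00 (0.833 to 1.21). The subunits work as a pair, and their ratio intervals overlapped. *Tapbp* (chr17:33915899-33929292, plus strand), tapasin, had 639 counts and 9.32 FPKM in the mutant library and 638 counts and 9.04 FPKM in the control library, a ratio of 1.03 (0.922 to 1.15). Summed over these 3 genes, the counts were 991 in the mutant library and 965 in the control library, a ratio of 1.06 (0.966 to 1.16).

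**Figure D2:**
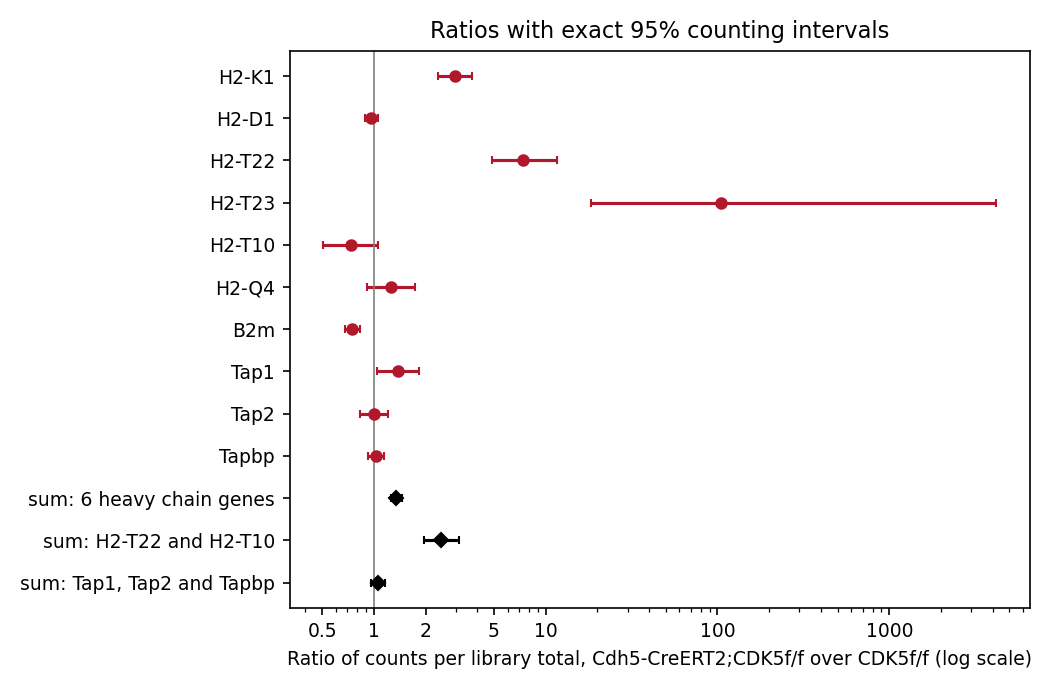
Ratio of counts per library total, mutant over control, on a log axis for each of the 10 genes (red circles) and for 3 sums (black diamonds), with exact conditional 95% intervals and a vertical line at 1. *H2-K1*, *H2-T22* and *H2-T23* lie to the right of the line at 2.95, 7.40 and 105, *B2m* lies left of it at 0.750, and the summed heavy chains lie at 1.35.

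Ordered by FPKM, *B2m*, *H2-D1* and *Tapbp* led in both libraries without overlap of their counting intervals. In the mutant library *H2-K1* came next, followed by *Tap2* and *H2-T22*, by *H2-T23* and *H2-Q4*, and by *Tap1* and *H2-T10*, where the genes within each of these pairs had overlapping intervals. In the control library *Tap2* came next, followed by *H2-K1*, *H2-Q4*, *H2-T10* and *Tap1*, each overlapping its neighbour, and then by *H2-T22* and *H2-T23*. *H2-T22* and *H2-T23* thus stood above *H2-T10* in the mutant library and below it in the control library.

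Heavy chain genes share sequence, and the sources used here do not say how reads with several matches were counted, so the counts were also summed. Over all 6 heavy chain genes they were 1663 in the mutant library and 1266 in the control library, a ratio of 1.35 (1.26 to 1.46). The classical genes *H2-K1* and *H2-D1* together had 1233 counts in the mutant library and 1093 in the control library, a ratio of 1.16 (1.07 to 1.26). The 4 nonclassical genes had 430 and 173, a ratio of 2.56 (2.14 to 3.07). The summed difference was thus smaller than that of the single genes past 1.5-fold, and without *H2-D1*, the gene with the most heavy chain counts, it was 2.71.

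The make-up of the heavy chain transcripts differed more than their sum. *H2-D1* held 55.7% of the summed heavy chain counts in the mutant library (exact 95% interval 53.3% to 58.1%) and 77.9% in the control library (75.5% to 80.1%). The share of *H2-K1* was 18.5% (16.6% to 20.4%) in the mutant library and 8.45% (6.98% to 10.12%) in the control library. The share of *H2-T22* was 11.2% (9.77% to 12.9%) in the mutant library and 2.05% (1.35% to 2.99%) in the control library. These intervals did not overlap between libraries, and neither did those of *H2-T23*, at 6.13% and 0.08%, or *H2-T10*, at 3.19% and 5.85%. Those of *H2-Q4*, at 5.29% and 5.69%, did. The shares are parts of a whole, so higher shares of some genes lower those of others. The counts of *H2-D1* itself were 926 in the mutant library and 986 in the control library. As the genes were chosen on this contrast, the shares are a description. Per unit of exonic length, *H2-D1* made up 59.5% of the summed heavy chain FPKM in the mutant library and 80.3% in the control library.

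**Figure D3:**
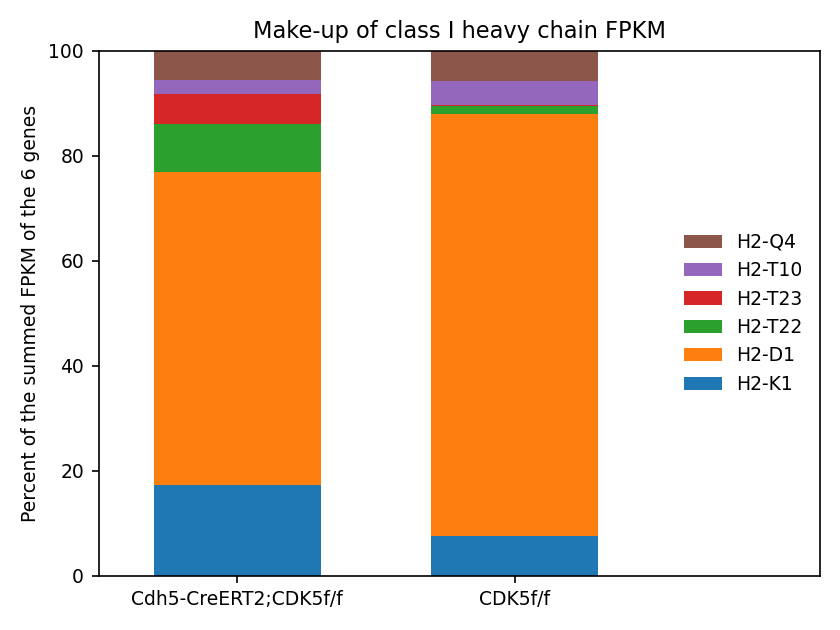
Stacked bars of the percent that each of the 6 heavy chain genes holds of their summed FPKM, with the mutant library on the left and the control library on the right. *H2-D1* holds 59.5% in the mutant library and 80.3% in the control library, while *H2-K1* holds 17.3% and 7.64% and *H2-T22* holds 9.09% and 1.59%.

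Sequence shared with other genes was measured in the annotated transcripts (GENCODE M21) on both strands, so overlapping genes on the opposite strand count too. Of the distinct 50-base windows of *H2-T22*, 53.5% also occur in another gene, and 31.2% occur in *H2-T10*. A share of 26.5% occurs in *A930015D03Rik*, which overlaps *H2-T22* on the opposite strand. For *H2-T10* the shares were 50.4% and, with *H2-T22*, 31.7%. With *BC023719*, which overlaps *H2-T10* on the opposite strand, the share was 24.9%. Where reads with several matches were counted, counts of these genes can be exchanged, and their sum does not depend on that. Where such reads were left out, both genes lack them, and the sum does not bring them back. *H2-T22* and *H2-T10* together had 240 counts in the mutant library and 100 in the control library, a ratio of 2.47 (1.95 to 3.15). Adding *H2-T23* gave 342 and 101, a ratio of 3.48 (2.78 to 4.40). These sums hold genes that were chosen on this same contrast, so their ratios are a description and give no support for a difference.

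*H2-K1* and *H2-T23* have less shared sequence, with 9.63% and 14.5% of their 50-base windows found elsewhere, and 0.957% and 3.15% of their 100-base windows. The share was 12.8% for *H2-D1*, 36.4% for *H2-Q4* and 23.2% for *Tapbp* at 50 bases, and *B2m* had none. *Gm11131*, opposite *H2-Q4*, holds 15.3% of the *H2-Q4* windows, and *Gm19412*, opposite *Tapbp*, holds 20.3% of the *Tapbp* windows. Overlap with other genes also matters where counting did not use strand, which the sources used here do not give. On the opposite strand, *A930015D03Rik* covers 29.4% of the exonic bases of *H2-T22* and itself had 3 counts in the mutant library and 0 in the control library. *Zbtb22* overlaps 4.11% of *Tapbp* on the same strand and had 506 counts in the mutant library and 571 in the control library.

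Other class I heavy chain genes were read from the whole table. It holds 32 such rows, of which 21 had a count, and together they had 1907 counts in the mutant library and 1365 in the control library, a ratio of 1.44 (1.34 to 1.54). Of the 15 outside the list that had a count, 11 had more counts in the mutant library and 4 had fewer, but only 6 of them reached 20 counts over both libraries. *H2-T24*, which lies beside *H2-T23*, had 85 counts and 2.06 FPKM in the mutant library, against 11 counts and 0.26 FPKM in the control library, a ratio of 7.95 (4.23 to 16.5). *H2-K2*, a neighbour of *H2-K1*, had 36 counts in the mutant library and 0 in the control library. With the control set to a floor of 3 counts the fold is 12.3, and the exact 95% interval of the ratio starts lower, at 9.54. With *H2-K2* added, *H2-K1* had 343 counts in the mutant library and 107 in the control library, a ratio of 3.30 (2.65 to 4.14).

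Of the 10 genes, 9 lie on chromosome 17, in 2206 kb between the start of *Tapbp* and the end of *H2-T10* (chr17:33915899-36121465). The stretch holds 80 measured genes without an H2 symbol, of which 7 were higher and 2 were lower past 1.5-fold. The shares among all 14778 measured genes were 3.65% higher and 3.16% lower. Whether the stretch differs from the rest of the genome in this was not tested. For the 80 genes the log2 ratios had a median of 0.09, against 0.00 over all measured genes. The largest of these log2 ratios, 2.36, was that of *Rps18*, a ribosomal protein gene between *Tapbp* and *H2-K1*, with 506 counts in the mutant library and 63 in the control library (ratio 8.27, 6.35 to 10.9). *Ring1*, a Polycomb gene, had 778 counts in the mutant library and 492 in the control library, and *Lst1*, a leukocyte gene, had 12 and 1. Also higher were *Ly6g6e*, with 56 and 30 counts, *CR974462.3*, with 22 and 10, *CR974462.5*, with 22 and 0, and *Gm23442*, with 6 and 1. Lower past 1.5-fold were *Aif1*, a microglial gene, with 101 counts in the mutant library and 187 in the control library, and *Ncr3-ps*, with 12 and 26.

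Some genes were nearly one-sided between the libraries. With at least 20 counts in the mutant library and at most 1 in the control library there were 19 genes, of which 3 lie on the Y chromosome and 5 on chromosome 17. Of those 5, *H2-T23*, *H2-K2*, *H2-Aa* and *CR974462.5* lie within the stretch above. In the opposite direction there were 12 genes, of which 1 lies on chromosome 17 and 0 lie in the stretch. Which property of the mice goes with this was not tested.

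**Figure D4:**
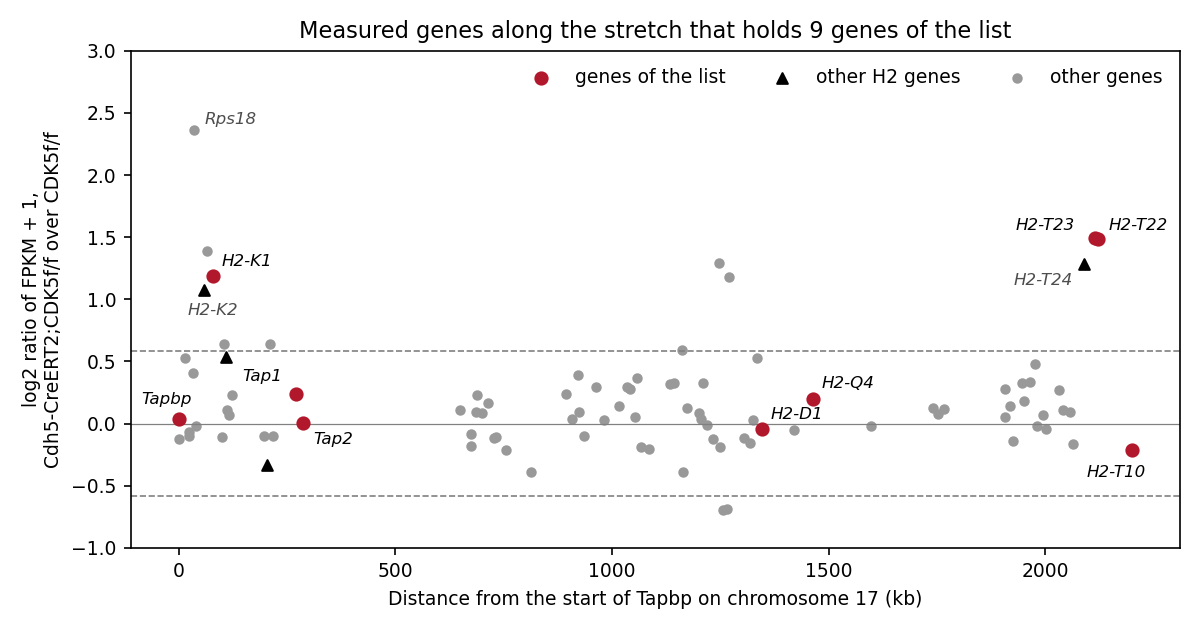
Log2 ratio of FPKM + 1, mutant over control, for the 93 measured genes of the stretch against distance from the start of *Tapbp*, with genes of the list in red, other H2 genes as black triangles, other genes in grey and dashed lines at 1.5-fold. H2 genes past the upper line sit near both ends, around *H2-K1* and around *H2-T22* and *H2-T23*, while *H2-D1*, *H2-Q4*, *Tap1* and *Tap2* lie between the dashed lines.

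The rest of the pathway was read through lists of genes, where measured again means reaching 1 FPKM in either library. Of the 12 genes for peptide loading and trimming in the endoplasmic reticulum, all were measured, 1 was higher and 0 lower past 1.5-fold, and the median log2 ratio was 0.14. The one past it was *Hspa5*, the chaperone BiP, with 8335 counts in the mutant library and 5047 in the control library (log2 ratio 0.76). *Calr*, the calreticulin of the loading complex, had 8847 and 6343 (0.52). *Hsp90b1*, the chaperone GRP94, had 7038 and 5381 (0.42), and *Pdia3*, ERp57 of the loading complex, had 4599 and 3521 (0.42). The tapasin-related *Tapbpl* had 131 and 91 (0.40). Counting intervals lay above 1 for 9 of the 12 genes and below 1 for 0, where 19.7% and 17.9% of all measured genes had such intervals. An interval narrows as counts rise, so these shares are not a background of like depth. *Canx*, with 5849 counts in the mutant library and 5767 in the control library, had its interval above 1 at a ratio of 1.04 (1.01 to 1.08). The chaperones of this list serve the folding of many proteins beside class I.

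The proteasome genes that make and trim class I peptides showed smaller differences. Of 8 genes of the immunoproteasome, its assembly factor and the proteasome activators, 6 were measured and 0 were past 1.5-fold, with a median log2 ratio of 0.02. *Psme1*, a PA28 subunit, had 525 counts in the mutant library and 386 in the control library (0.44). The interferon-induced catalytic subunit *Psmb8*, which lies between *Tap1* and *Tap2*, had 40 and 65 counts and was under the minimum. The 3 constitutive catalytic subunits had a median of 0.09, with 0 past 1.5-fold.

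Transcription factors of class I genes did not pass 1.5-fold in either direction, with 12 of 15 measured and a median log2 ratio of -0.00. Counting intervals lay above 1 for 2 of the 12 and below 1 for 3, where 19.7% and 17.9% of all measured genes had such intervals. *Nlrc5*, the class I transactivator, had 23 counts in the mutant library and 26 in the control library and was under the minimum. *Irf1*, which binds the interferon response element, had 121 counts in the mutant library and 165 in the control library, a ratio of 0.755 (0.592 to 0.960). Of 25 interferon response genes 14 were measured, 1 was higher and 0 lower, and the median was 0.10. The one past 1.5-fold was *Bst2*, tetherin, with 103 counts in the mutant library and 37 in the control library (log2 ratio 1.18). Counting intervals lay above 1 for 6 of the 14 and below 1 for 0, beside the 19.7% and 17.9% of all measured genes. Next to *Bst2*, the largest log2 ratios were those of *Igtp*, an interferon-induced GTPase, with 69 counts in the mutant library and 42 in the control library (0.44), *Ifitm3*, with 182 and 139 (0.40), the interferon-γ receptor gene *Ifngr1*, with 302 and 237 (0.32), and *Ifi27*, with 653 and 534 (0.32). *Isg15*, with 27 and 31 counts, had an interval that included 1.

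**Figure D5:**
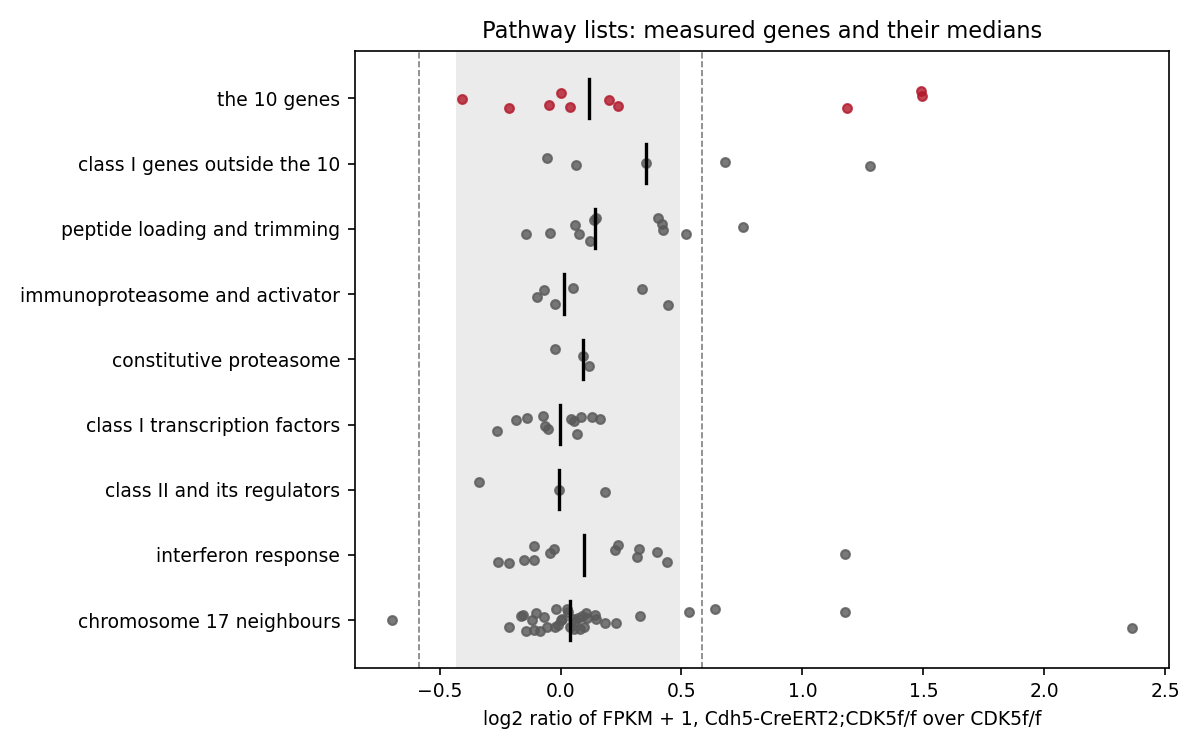
Log2 ratio of FPKM + 1, mutant over control, of each measured gene of the 10 (red, top) and of the pathway lists (grey), with a black bar at each median, a shaded band between the 5th and 95th percentiles of all 14778 measured genes (-0.43 to 0.49) and dashed lines at 1.5-fold. Most pathway genes fall in the band, and the list medians lie between -0.01 and 0.36.

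Class I genes away from the 10 were listed as well. Of 21 genes 5 were measured, and 2 of these, *H2-T24* and *Hfe*, were higher past 1.5-fold, with a median log2 ratio of 0.36 over the 5. *Hfe*, a class I-like regulator of iron uptake on chromosome 13, had 182 counts in the mutant library and 91 in the control library, a ratio of 2.06 (1.59 to 2.68). *Fcgrt*, the neonatal Fc receptor, with 283 and 304 counts, and *Mr1*, with 140 and 133, had intervals that included 1. Of 12 listed receptors that recognise class I, 11 are in the table and 0 were measured, with 43 summed counts in the mutant library and 32 in the control library.

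Class II genes, which present peptides to CD4 T cells and lie among the class I genes, were mostly too low to measure. Of 12 class II genes and regulators 3 were measured, with a median log2 ratio of -0.01 and 0 of the 3 past 1.5-fold. *H2-Aa*, a class II α chain, had 45 counts in the mutant library and 0 in the control library, but its FPKM stayed under 1. With the control set to the floor of 3 counts the fold is 15.4, and the exact 95% interval starts lower, at 12.05. *H2-Eb1* had 32 counts in the mutant library and 9 in the control library, a ratio of 3.66 (1.71 to 8.72). The log2 ratios of *H2-Aa* and *H2-Eb1*, 0.70 and 0.59, were past 1.5-fold, but both genes were under the minimum and so not counted. Also under it, *H2-DMb1* had 20 and 7 counts (ratio 2.94, 1.19 to 8.23) and *H2-Ab1* had 8 and 1 (8.23, 1.10 to 365). The other genes under the minimum had intervals that included 1. *Cd74*, the invariant chain, had 130 and 114, and the peptide exchange gene *H2-DMa* had 236 and 324, a ratio of 0.750 (0.631 to 0.889).

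Cell types known for high class I levels were checked through their markers. The 12 microglial markers had 6941 summed counts in the mutant library and 7230 in the control library. Among them *Aif1* was lower past 1.5-fold, as given above, and *Trem2*, under the minimum, had 5 counts in the mutant library and 56 in the control library. Of the 11 measured, counting intervals lay above 1 for 2, *Csf1r* and *C1qa*, and below 1 for 4, with a median log2 ratio of -0.06. The 13 endothelial markers had 8120 and 8136, with 0 past 1.5-fold and a median log2 ratio of -0.01. Their counting intervals lay above 1 for 4 and below 1 for 5. Over all measured genes, 19.7% had an interval above 1 and 17.9% had one below 1. The 13 lymphocyte markers had 59 and 37, with 0 measured and *Cd3e*, *Ms4a1* and *Gzma* at 0 in both libraries. The 6 markers of border macrophages had 194 and 147, with 0 measured. Of these, *F13a1* had 68 and 31 counts, and the others had intervals that included 1. The choroid plexus markers, all higher in the mutant library as given above, included *Ttr* at 78546 counts in the mutant library and 2797 in the control library. The part of these cell types in the class I values was not tested.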

How the data were processed

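Hippocampal RNA was sequenced in 1 *Cdh5-CreERT2;CDK5f/f* and 1 *CDK5f/f* library. The authors deposited raw counts per gene and, for the same genes, FPKM, which equals the count scaled to exonic length and to the library total. Tools named in the submitters' processing notes are HTSeq 0.6.1, HISAT2 2.0.1, DESeq2 and cutadapt 1.9.1. The build named there is mm9, but all 10 genes have the GRCm38 start and end of GENCODE M21. Strand and the treatment of reads with several matches are not given in the sources used here.

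The members and lists were chosen with earlier results of these data known. Counts per library total were compared as a ratio, mutant over control, with an exact conditional (Clopper-Pearson) 95% interval, which covers counting error only. Deposited FPKM were compared as log2(FPKM + 1), which understates folds of low genes, for genes that reach 1 FPKM in either library. A gene past 1.5-fold on this scale counted as higher or lower. A control count of 0 was set to a floor of 3 counts only for the folds given for *H2-K2* and *H2-Aa*. Intervals and sums used the count of 0. Named were the 10 genes and, in each list, the genes past 1.5-fold and up to 4 others with the largest log2 ratios among those with at least 50 counts. Other genes were named after their values were seen. Alternatives were another pseudocount, scaling, library total, minimum and choice of summed genes.

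Promoters came from RefSeq and were aligned with Biopython 1.88. Computations ran in Python 3.11.15 with pandas 2.3.3, scipy 1.17.1, numpy 2.4.6 and, for figures, matplotlib 3.10.9, and the steps were tested on simulated data. Libraries of the study other than these 2 were not analysed here.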

Additional observations from a re-analysis of the deposited data

How the results depend on the processing

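No paired analysis was possible because each genotype has 1 library. Of 101 values recomputed under the alternatives, 11 moved, and 5 medians of 4 pathway lists changed sign. With an FPKM minimum of 5, the median was -0.05 for class I genes outside the 10 (1 gene left) and -0.02 for the immunoproteasome list. Without a minimum it was -0.03 for the immunoproteasome list, 0.06 for class II and -0.03 for interferon response, and that of class I genes outside the 10 was 0.07, against 0.64 with a pseudocount of 0.1. No direction is read from these medians. With a pseudocount of 0.1, 929 genes were higher and 807 lower past 1.5-fold, against 539 and 467 with a pseudocount of 1, and the log2 ratio was 4.04 for *H2-T23*, 2.61 for *H2-T22* and 1.51 for *H2-K1*, the 3 genes of the list that were higher. With an FPKM minimum of 5, 167 genes were higher and 126 lower of 8423, and of the 4 genes of the list that were left 1 was higher, since *H2-T22* and *H2-T23* lie under that minimum. The summed heavy chain ratio of 1.35 was 2.56 without *H2-K1* and *H2-D1*, 2.71 without *H2-D1*, 1.20 without *H2-K1* and 1.23 without *H2-T22*. Scaling by the median ratio moved the log2 ratios of the 10 genes by at most 0.0029, and a total without mitochondrial and choroid plexus genes by at most 0.03. The depth limits *H2-T23* most, with 1 count in the control library, and counts cannot show how mice of 1 genotype differ.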

Other observations

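Among H2 genes not named above, *H2-Q2* had 9 counts in the mutant library and 0 in the control library, *H2-Q1* had 5 and 0, and the pseudogene *H2-T-ps* had 6 and 0. *H2-Q10* had 2 counts in the mutant library and 10 in the control library, and *H2-Q6* had 10 and 14. *H2-M5* had 24 and 21, and *H2-M3*, which presents formylated peptides, had 35 and 22, a ratio of 1.64 (0.934 to 2.93). *H2-Ke6*, a steroid dehydrogenase gene that carries an H2 symbol without being a class I gene, had 34 counts in the mutant library and 14 in the control library, a ratio of 2.50 (1.31 to 5.04). Of the markers, *Hba-a2* was lower past 1.5-fold, with 18 counts in the mutant library and 61 in the control library, and *Hbb-bt* was higher, with 101 and 64, while *Hbb-bs* had 885 and 904. The neuronal marker *Wfs1* was higher past 1.5-fold, with 3871 counts in the mutant library and 2422 in the control library.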
